A study of Mus musculus with 42 samples.

Results

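Total kidney RNA was compared between day 10 and day 5 after unilateral ureteral obstruction, an operation that ties off the urine outflow of one kidney and leaves the other in place. The comparison was defined by the labels alone: 7 Total libraries of day 10 (4 male, 3 female) were set against 7 Total libraries of day 5 (4 male, 3 female), 14 of the 42 libraries of the series, with males and females averaged at equal weight. The labels call day 10 the severe and day 5 the moderate injury. All mice were 12 weeks old, and RNA came from dissected renal cortex. Another 7 Total libraries came from contralateral kidneys, whose day the labels do not give, and 21 libraries held proximal tubule (PT) RNA that stayed on anti-GFP beads (translating ribosome affinity purification, TRAP). Strain, the transgene behind the GFP and the cells it marks are not named in the labels, nor is it said whether Total is the fraction that the beads left unbound or whether replicates came from separate animals. The p-values therefore measure the spread between these libraries, which may in part be technical.

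An obstructed kidney loses working tubule cells while leukocytes enter and fibroblasts lay down matrix. Macrophages arrive as monocytes and can take on states marked by phagocytic, lysosomal and alternative-activation genes. Myofibroblasts, which derive mainly from resident fibroblasts and pericytes, secrete collagens and the proteins that organise and crosslink them, under the control of TGF-beta, Wnt and activin signals. Injured proximal tubule cells lower their carriers and metabolic enzymes and raise injury genes such as Havcr1, kidney injury molecule 1.

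Counts per library ran from 9.31 to 20.6 M in day 10 kidneys (median 16.6 M) and from 10.2 to 23.8 M in day 5 kidneys (median 15.96 M). Genes that define the tubule segments, glomerulus and vessels were all measured, among them Slc34a1 of the proximal tubule (106 to 515 CPM, counts per M counts, in day 10 kidneys and 194 to 391 CPM in day 5 kidneys), Umod of the loop of Henle (433 to 749 and 506 to 882 CPM) and Pecam1 of endothelium (23.9 to 50.2 and 23.2 to 40.2 CPM). Ly6g of neutrophils, Sox10 of glia and Adipoq of fat cells were too low to be tested. Libraries stood apart from one another within a day. The first principal component of the 14 libraries held 21.7% of the variance and set male day 5 replicates 1 and 2 and male day 10 replicate 3 at one end. These are also the 3 libraries with the lowest Lars2, the gene of the mitochondrial leucyl-tRNA synthetase, at 1905 to 2190 CPM. Lars2 was between 1905 and 34180 CPM in day 10 kidneys and between 2066 and 10760 CPM in day 5 kidneys, and all 3 female day 10 libraries lay at 29200 CPM or above. In males the days overlapped, at 1905 to 27083 CPM in day 10 and 2066 to 10760 CPM in day 5 kidneys. Lars2 was thus highest in the female day 10 libraries, and its change between the days did not reach an adjusted p under 0.05. Gm42418, a gene symbol that took a large share of the counts, was also highest in the female day 10 libraries, at 129783 to 147091 CPM, and lowest in male day 10 replicate 3, at 22995 CPM. Calls with Lars2 in the fit or without its lowest libraries are given after the counts, and the part of Gm42418 was not tested. The labels give no batch.

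Values in brackets are log2 changes, day 10 over day 5, ± an approximate standard error derived from the test, followed by the Benjamini-Hochberg adjusted p of edgeR's quasi-likelihood test over all genes tested. "Rose" and "fell" are used of genes called at an adjusted p under 0.05 and at least 2-fold. Levels are the lowest, median and highest CPM of the 7 libraries of a day. Because the RNA is bulk, fewer cells of a type and less RNA per cell cannot be told apart. Of 16782 genes tested, 59 rose (0.352%) and 7 fell (0.0417%) at day 10, so 66 were called (0.393%). A further 25 genes higher and 13 lower at day 10 had an adjusted p under 0.05 with a change under 2-fold. The median change of all genes was 0.02, and 53.9% of them were higher at day 10 in the average. These shares over all genes apply beside every list count below. All 66 called genes had the same sign in males and in females. Of these, 41 showed no overlap between the days within either sex, and 32 showed none between all 7 libraries of each day. Over all genes tested, day 10 lay above day 5 within both sexes without overlap for 0.536% and below it for 0.197%. For all 7 libraries the shares over all genes were not counted, but they cannot exceed those within the sexes. The share with the same sign in both sexes was not counted over all genes either. These counts use the libraries that called the genes, so they are a description. All of the 66 but the pseudogene Gm7180 are annotated as protein coding, and none of 1139 long noncoding RNAs tested was called.

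**Figure D1:**
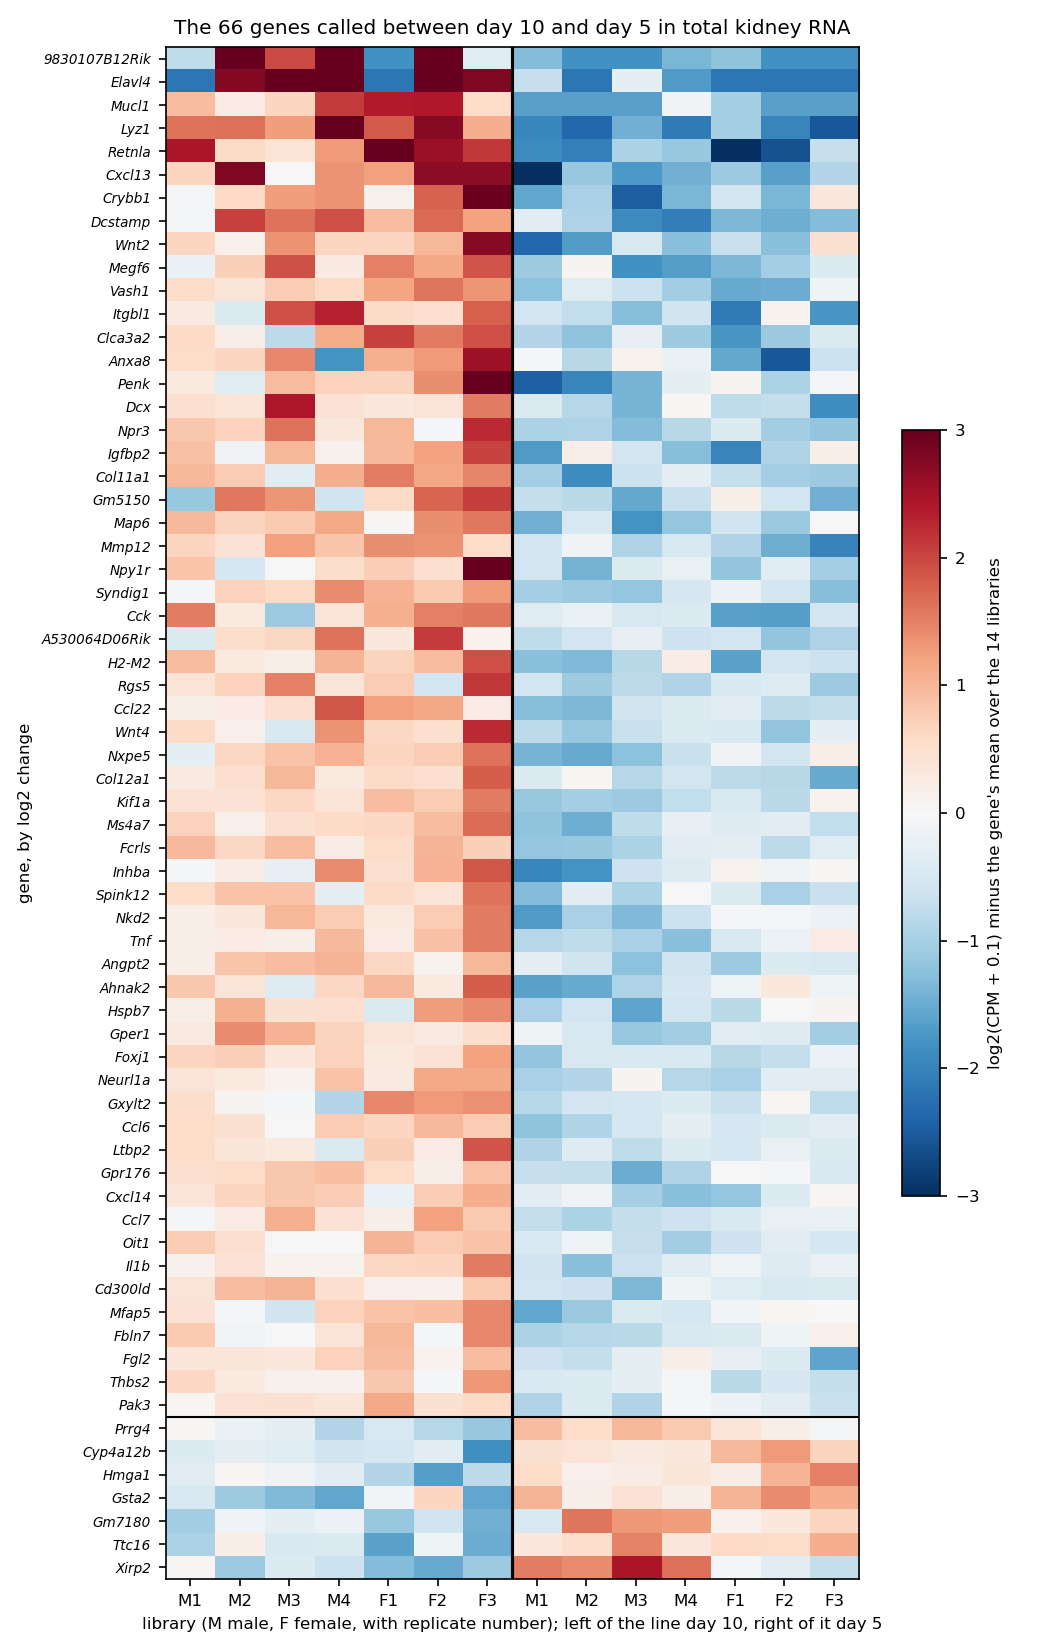
Each row is one of the 66 called genes, ordered by log2 change, and each column one of the 14 libraries, day 10 to the left of the vertical line and day 5 to the right; colour is log2(CPM + 0.1) minus the gene's mean over the 14 libraries, with values beyond 3 either way drawn at the end colour. The 59 genes above the horizontal line rose and the 7 below it fell, and female replicate 3 of day 10 (F3) holds the highest day 10 value of 30 of the 59.

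The number called rested on several single libraries. With 1 library left out at a time the count ran from 17 to 95. It was below the full count by over 1.5 times without female day 10 replicate 3 (21 called), without male day 10 replicate 4 (38), without female day 5 replicates 1 (17), 2 (21) or 3 (31), and without male day 5 replicates 1 (28), 2 (30) or 3 (36). In 13 genes the call was kept in each of those 14 fits: Lyz1, Retnla, Cxcl13, Npr3, Mmp12, Col12a1, Kif1a, Ms4a7, Nkd2, Col11a1, Dcstamp, Gper1 and Cyp4a12b. Without the 3 libraries of lowest Lars2, 14 genes were called, and all 14 were among the 66. With log2 Lars2 CPM as a covariate, 49 genes were called and 26 of the 66 kept their call. Those 26 included Lyz1, Retnla, Npr3, Mmp12, Col12a1, Kif1a, Ms4a7 and Nkd2. The other 40 lost it, among them Cxcl13 (3.10, adjusted p = 0.0525), Ccl6 (0.79, adjusted p = 0.0788), Inhba (0.93, adjusted p = 0.192), Cck (1.12, adjusted p = 0.233) and Mfap5 (0.62, adjusted p = 0.272). Fcrls, Ccl22, Tnf, Il1b, Thbs2, Wnt4, Ltbp2, Penk, Anxa8, Foxj1, Gsta2, Hmga1 and Prrg4 also lost it. These alternatives were chosen after seeing the data.

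The largest rises at a mean of 5 CPM or more without overlap within either sex were, in order, Lyz1, Retnla, Cxcl13, Npr3 and Mmp12. Cxcl13 and Npr3 are described below. Retnla encodes a secreted resistin-like protein made by alternatively activated mouse macrophages, and its level was 9.0, 29.8 and 60.4 CPM in day 10 kidneys, against 0.657, 1.75 and 4.19 CPM in day 5 kidneys (3.74 ± 0.48, adjusted p = 0.00155). Every day 10 library lay above every day 5 library, and no contralateral library exceeded 0.335 CPM. Lyz1, a lysozyme gene with a near-identical neighbour, Lyz2, with which the authors' counting could have split reads, had 3.58, 5.40 and 15.7 CPM in day 10 kidneys and 0.199, 0.341 and 0.766 CPM in day 5 kidneys (4.15 ± 0.43, adjusted p = 2.1e-05). Mmp12, the macrophage elastase that cuts elastin, had 16.1, 21.5 and 31.5 CPM in day 10 kidneys and 2.89, 6.35 and 11 CPM in day 5 kidneys (1.93 ± 0.21, adjusted p = 2.7e-05). Its groups did not overlap either; it is annotated as overlapping Mmp1b on the other strand, and the strand setting of the counting is not given in the sources used here.

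Further macrophage genes that rose encode membrane proteins. Ms4a7, a membrane protein of tissue macrophages, had 33.5, 46.1 and 96.3 CPM in day 10 kidneys and 10.8, 18.1 and 25.5 CPM in day 5 kidneys (1.47 ± 0.23, adjusted p = 0.00318). Fcrls, an Fc receptor-like gene known from mouse microglia, had 22.7, 31.7 and 39.6 CPM in day 10 kidneys and 8.57, 11.1 and 15.9 CPM in day 5 kidneys (1.4 ± 0.30, adjusted p = 0.0304). Neither gene's groups overlapped, but the call of Fcrls was kept in only 5 of the 14 fits with a library left out, with adjusted p up to 0.129. Dcstamp, needed for the fusion of macrophages into giant cells and osteoclasts and named here after its values were seen, had 1.08, 3.66 and 5.0 CPM in day 10 kidneys and 0.189, 0.383 and 0.874 CPM in day 5 kidneys (2.96 ± 0.42, adjusted p = 0.00153).

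Among 20 macrophage and monocyte markers, Ms4a7 alone was called, 19 were higher at day 10 in the average and the median change was 0.47, beside 0.02 over all genes and 0.352% of all genes called higher. The summed level of the 20 was 1431, 1677 and 2671 CPM in day 10 kidneys and 885, 1241 and 1586 CPM in day 5 kidneys, so the ranges overlapped. Adgre1, the macrophage adhesion receptor, had medians of 35.2 and 30.04 CPM in day 10 and day 5 kidneys (0.35 ± 0.20, adjusted p = 0.523). Cd68 (0.43 ± 0.19, adjusted p = 0.379) and C1qa, a complement subunit (0.49 ± 0.26, adjusted p = 0.484), did not pass either. Mrc1, the mannose receptor, passed the adjusted p but not the 2-fold limit (0.93 ± 0.22, adjusted p = 0.0448); it is named after its values were seen, as are Cd86 (0.89 ± 0.20, adjusted p = 0.034) and the macrophage chemokine Ccl9 (0.87 ± 0.17, adjusted p = 0.0201), of which the same holds.

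Several genes named here overlap an annotated gene on the other strand, from whose reads theirs cannot be told apart without a strand setting. Besides those noted at the gene, they include Col12a1, Ccl6, Ltbp2, Inhba, Nkd2, Anxa8, Npr3, Hmga1, Cyp4a12b, Xirp2, Fgl2, Gper1 and Neurl1a.

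**Figure D2:**
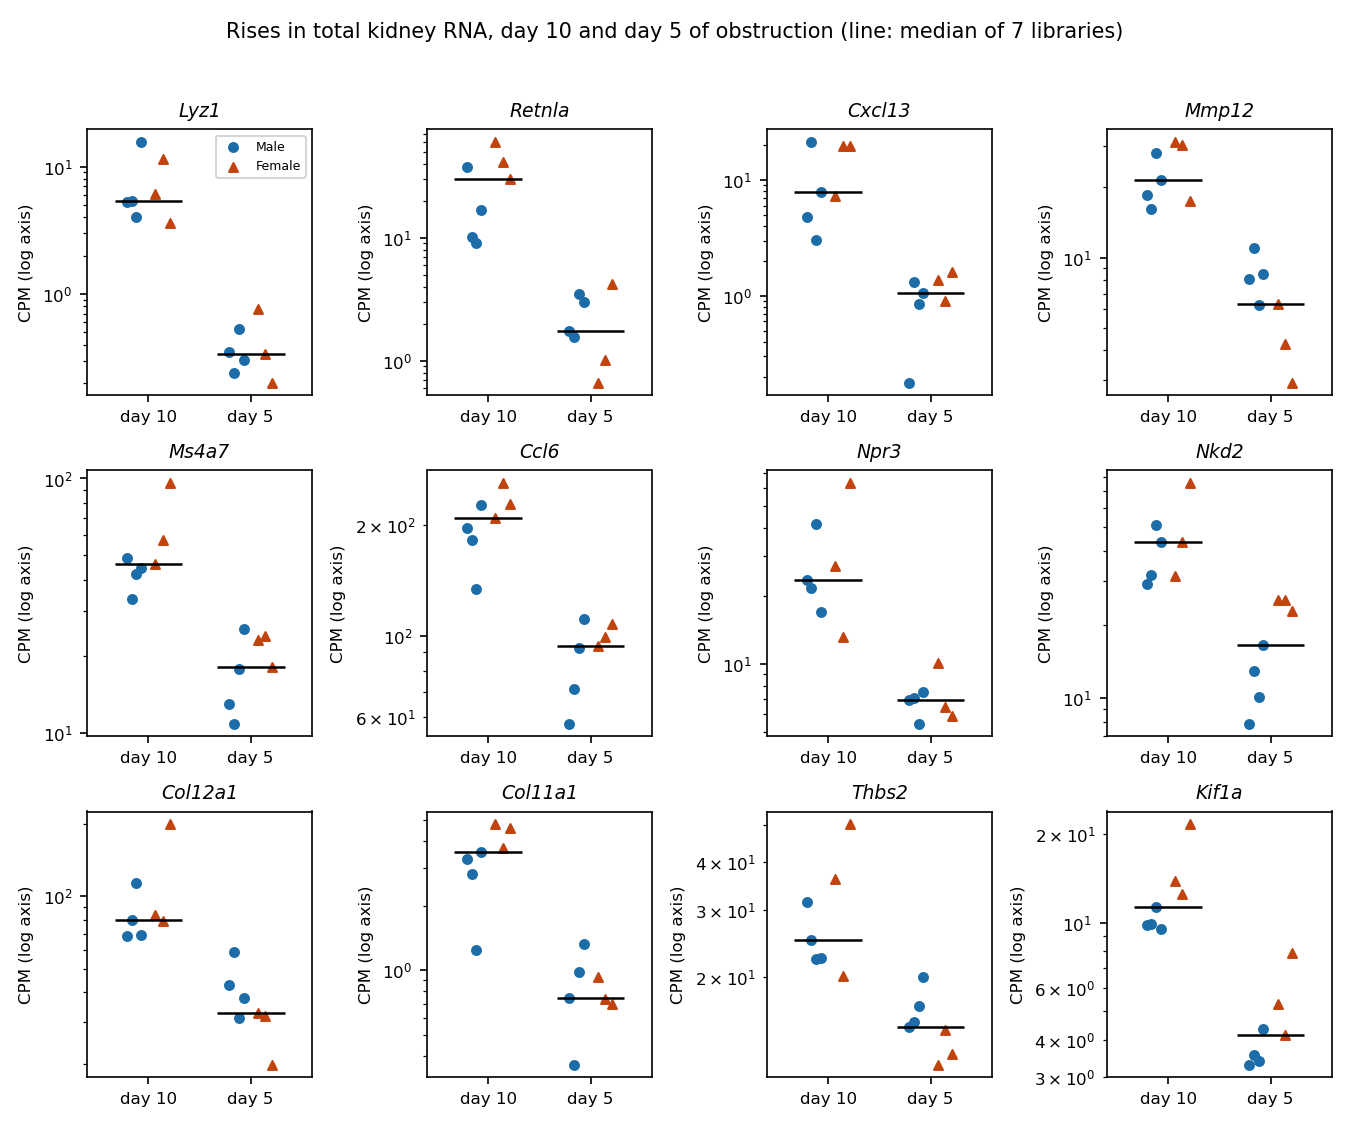
CPM of 12 genes that rose, on log axes, in day 10 (left) and day 5 (right) Total libraries; circles are males, triangles females and the line is the median of 7 libraries. The day 10 points of Retnla, from 9.0 to 60.4 CPM, all lie above the highest day 5 point at 4.19 CPM, while those of Col11a1 overlap with day 5 at one male library.

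Promoter sequence is shown for Retnla, Mmp12 and Ccl6, a chemokine described below, which are myeloid genes that rose and separated the days without overlap. The same holds for Lyz1, Ms4a7, Fcrls, Ccl22 and Dcstamp, whose promoters are not shown. The 250 bases before the annotated start are given in the direction of the gene, from RefSeq on GRCm38.p6, for Retnla at chr16:48842359-48842608 on the plus strand, for the upstream of 2 annotated starts of Mmp12 at chr9:7344147-7344396 on the plus strand and for Ccl6 at chr11:83593088-83593337 on the minus strand. Capitals mark GGAAGT or its reverse complement ACTTCC, the core bound by Ets factors such as the myeloid factor PU.1, and TATAAA or its reverse complement TTTATA, the TATA box.
Retnla: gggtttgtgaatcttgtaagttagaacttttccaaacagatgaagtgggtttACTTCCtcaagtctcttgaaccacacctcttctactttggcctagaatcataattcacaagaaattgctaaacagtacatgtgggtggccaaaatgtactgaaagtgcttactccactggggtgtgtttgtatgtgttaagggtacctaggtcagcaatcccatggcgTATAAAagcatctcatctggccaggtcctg
Mmp12: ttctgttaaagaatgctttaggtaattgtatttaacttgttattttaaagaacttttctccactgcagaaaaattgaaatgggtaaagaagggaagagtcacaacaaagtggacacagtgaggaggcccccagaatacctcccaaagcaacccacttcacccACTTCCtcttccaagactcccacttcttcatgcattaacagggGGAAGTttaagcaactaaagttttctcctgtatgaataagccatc
Ccl6: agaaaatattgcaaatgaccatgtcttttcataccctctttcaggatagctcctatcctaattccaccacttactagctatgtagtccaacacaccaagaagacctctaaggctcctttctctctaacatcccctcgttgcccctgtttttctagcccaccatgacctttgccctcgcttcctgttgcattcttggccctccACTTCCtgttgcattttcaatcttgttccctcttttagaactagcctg
GGAAGT was found 1 time in Retnla, 2 times in Mmp12 and 1 time in Ccl6, and TATAAA 1 time in Retnla. RefSeq promoters were matched for 49 of the 59 genes that rose. Of their 59 windows of 250 bases, 32.2% held GGAAGT on either strand, beside 19.7% of all 32851 windows in the table, and 18.6% held TATAAA, beside 12.4%. Each gene shown held GGAAGT, but only 18 of the 49 matched genes did (36.7%), beside 22.2% of all genes in the table. The motifs do not overlap each other in these windows. A match is a description of the letters only.

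Chemokines and their receptors gave the most called members of any list, with 4 of 33 tested rising (Ccl22, Ccl6, Cxcl14 and Ccl7) and none falling, beside 0.352% and 0.0417% of all genes, at a median change of 0.34. A further chemokine that rose, Cxcl13, was counted with the lymphoid genes. Cxcl13, the B cell chemoattractant of lymphoid aggregates, was 3.06, 7.87 and 21.5 CPM in day 10 kidneys and 0.175, 1.06 and 1.59 CPM in day 5 kidneys (3.53 ± 0.56, adjusted p = 0.00611). Its groups did not overlap. Ccl22, a chemokine of dendritic cells and macrophages that attracts regulatory T cells, was 4.75, 5.98 and 15.4 CPM in day 10 kidneys and 1.56, 2.49 and 3.28 CPM in day 5 kidneys (1.67 ± 0.33, adjusted p = 0.022). Ccl6, a mouse chemokine of myeloid cells, was 134, 210 and 261 CPM in day 10 kidneys and 57.3, 94.0 and 111 CPM in day 5 kidneys (1.19 ± 0.21, adjusted p = 0.0115). Neither overlapped. Ccl7, a monocyte chemoattractant, was 17.9, 25.2 and 43.5 CPM in day 10 kidneys and 9.69, 12.1 and 16.1 CPM in day 5 kidneys (1.16 ± 0.23, adjusted p = 0.0238), named after its values were seen. Cxcl14 also rose (1.17 ± 0.27, adjusted p = 0.047), with overlapping groups. Leaving out 1 library, the call was kept in 8 of 14 fits for Ccl22 and for Ccl7, in 12 for Ccl6 and in 2 for Cxcl14. Ccl2 (0.72 ± 0.24, adjusted p = 0.196), Ccl5 (0.14 ± 0.29, adjusted p = 0.923) and the neutrophil attractant Cxcl1 (-0.48 ± 0.28, adjusted p = 0.547) did not pass.

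Of 21 tested cytokines and growth factors of immune cells, 2 rose and none fell, beside 0.352% and 0.0417% of all genes. Tnf was 1.72, 1.80 and 4.58 CPM in day 10 kidneys and 0.566, 0.842 and 1.79 CPM in day 5 kidneys (1.35 ± 0.31, adjusted p = 0.0401). Il1b was 5.86, 7.46 and 16.2 CPM in day 10 kidneys and 2.23, 4.15 and 4.87 CPM in day 5 kidneys (1.08 ± 0.25, adjusted p = 0.0403), and it has an antisense partner, Il1bos, from which it cannot be separated here. The Il1b groups did not overlap; the lowest 2 Tnf libraries of day 10, both male, lay below the highest library of day 5, a female. The calls of Tnf and Il1b were each kept in 4 of 14 fits with a library left out, with adjusted p up to 0.217. Il6 was under 1 CPM in all 14 libraries (0.50 ± 0.47, adjusted p = 0.769), and the monocyte growth factors Csf1 (0.12 ± 0.17, adjusted p = 0.874) and Il34 (0.15 ± 0.21, adjusted p = 0.868) did not pass.

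None of 20 tested T and NK cell markers was called, 15 were higher at day 10 in the average and the median was 0.29. None of 21 tested B and plasma cell markers was called either, with 17 higher and a median of 0.27. That median was -0.09 in males and 0.26 in females. The summed level of the B and plasma cell list had medians of 363 CPM at day 10 and 531 CPM at day 5, with overlapping ranges. Cd3e of T cells was 1.90, 2.48 and 4.24 CPM in day 10 kidneys and 1.04, 1.62 and 4.2 CPM in day 5 kidneys (0.33 ± 0.37, adjusted p = 0.825). Jchain, the joining chain of secreted antibodies, was 11.6, 32.6 and 372 CPM in day 10 kidneys and 24.7, 77.2 and 176 CPM in day 5 kidneys (0.60 ± 0.80, adjusted p = 0.867). Day 10 held both the lowest and the highest Jchain library. Of 12 tested lymphatic endothelial and lymphoid aggregate genes Cxcl13 alone was called, and Lyve1 (-0.48 ± 0.57, adjusted p = 0.841) and Prox1 (0.02 ± 0.25, adjusted p = 0.99) of lymphatic vessels did not pass. Among 16 dendritic cell and class II genes none was called and 13 were higher at day 10; H2-Aa, a class II chain, was 1015, 1533 and 3071 CPM in day 10 kidneys and 648, 836 and 1199 CPM in day 5 kidneys, at an adjusted p of 0.0384 but under 2-fold (0.91 ± 0.21).

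Matrix genes rose in a few members, and these were minor collagens and binding proteins. Col12a1, a collagen that lies on the surface of collagen fibrils, was 68.2, 79.4 and 200 CPM in day 10 kidneys and 19.8, 32.7 and 58.6 CPM in day 5 kidneys (1.53 ± 0.22, adjusted p = 0.00153). The groups did not overlap, and the highest library, female day 10 replicate 3, was not needed for the call. Col11a1, a fibril collagen of cartilage, was 1.25, 3.54 and 4.81 CPM in day 10 kidneys and 0.361, 0.743 and 1.32 CPM in day 5 kidneys (2.04 ± 0.31, adjusted p = 0.00288). Both are the called members among 25 collagens, 20 of which were higher at day 10 (median 0.25). The main interstitial and basement membrane chains did not pass: Col1a1 was 216, 242 and 622 CPM in day 10 kidneys and 180, 219 and 337 CPM in day 5 kidneys (0.43 ± 0.22, adjusted p = 0.481), Col3a1 changed by 0.48 ± 0.20 (adjusted p = 0.35) and Col4a1 by 0.06 ± 0.15 (adjusted p = 0.937).

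Among 33 matrix glycoproteins and crosslinkers 2 rose, none fell, 28 were higher at day 10 and the median was 0.45. Over all genes 0.352% rose and 53.9% were higher at day 10. Thbs2, a thrombospondin that binds matrix and growth factors, was 20.1, 25 and 50.3 CPM in day 10 kidneys and 11.8, 14.8 and 19.96 CPM in day 5 kidneys (1.03 ± 0.18, adjusted p = 0.00989). Mfap5, a microfibril protein and also the called member of 20 fibroblast and myofibroblast markers (median 0.43), was 5.17, 12.6 and 21.4 CPM in day 10 kidneys and 2.58, 5.75 and 8.18 CPM in day 5 kidneys (1.08 ± 0.24, adjusted p = 0.0394). Their calls were kept in 8 and 4 of 14 fits with a library left out. Fn1, fibronectin, was 84.3, 100 and 162 CPM in day 10 kidneys and 50.3, 63.3 and 83.8 CPM in day 5 kidneys; its groups did not overlap and its adjusted p was 0.0492, but it stayed under 2-fold (0.71 ± 0.17). Tnc, tenascin C, was over 2-fold with an adjusted p of 0.052 (1.08 ± 0.26). Acta2, the myofibroblast actin, was at 103, 210 and 321 CPM in day 10 kidneys and 129, 183 and 293 CPM in day 5 kidneys (0.01 ± 0.26, adjusted p = 0.994), and Pdgfrb of fibroblasts and pericytes did not pass (0.32 ± 0.17, adjusted p = 0.483).

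Of 26 metalloproteinases and inhibitors tested, Mmp12 alone was called, 23 were higher at day 10 and the median was 0.48, the largest among lists with 20 or more tested members. Mmp2 (0.84 ± 0.25, adjusted p = 0.141), Mmp7 (1.27 ± 0.41, adjusted p = 0.196) and Timp1 (0.37 ± 0.25, adjusted p = 0.627) did not pass.

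Signalling genes of fibrosis gave 3 called members of 32, all higher, beside 0.352% of all genes called higher, at a median of 0.40. Inhba, the beta A chain of activin, was 3.70, 6.11 and 16.3 CPM in day 10 kidneys and 1.05, 3.36 and 4.71 CPM in day 5 kidneys (1.4 ± 0.31, adjusted p = 0.0314). Wnt4, a ligand of kidney development that is made again in interstitial cells after injury, was 3.57, 7.45 and 23.9 CPM in day 10 kidneys and 2.16, 3.12 and 4.09 CPM in day 5 kidneys (1.65 ± 0.37, adjusted p = 0.0406). Ltbp2, a microfibril protein of the latent TGF-beta binding family, was 7.61, 13.3 and 38.2 CPM in day 10 kidneys and 5.47, 7.62 and 8.80 CPM in day 5 kidneys (1.18 ± 0.25, adjusted p = 0.0291). In all 3 the highest library was female day 10 replicate 3, the groups of 7 overlapped, and the calls were kept in 7, 3 and 7 of 14 fits with a library left out; each was lost without female day 10 replicate 3. Tgfb1 itself (0.99 ± 0.33, adjusted p = 0.207) and Ctgf (0.61 ± 0.36, adjusted p = 0.555) did not pass.

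Outside the lists, 2 signalling genes were among the largest rises and kept their call whichever library was left out. Npr3, the clearance receptor that removes natriuretic peptides, was 13.2, 23.6 and 63.5 CPM in day 10 kidneys and 5.40, 6.91 and 10.1 CPM in day 5 kidneys (2.08 ± 0.29, adjusted p = 0.00148), with no overlap. Contralateral kidneys had a median of 9.05 CPM, above the day 5 median. Nkd2, an inhibitor of Wnt signalling that binds Dishevelled, was 29.2, 43.3 and 76.1 CPM in day 10 kidneys and 7.83, 16.5 and 25.2 CPM in day 5 kidneys (1.38 ± 0.19, adjusted p = 0.00121), again with no overlap. Wnt2, another Wnt ligand, rose at under 4 CPM in all libraries (2.63 ± 0.56, adjusted p = 0.0297) and Penk, the enkephalin precursor, reached 45.3 CPM in female day 10 replicate 3, against at most 12 CPM in the other 6 day 10 libraries (2.15 ± 0.43, adjusted p = 0.0292); both are named after their values were seen, and Penk has an overlapping transcript on the other strand. Without that library Wnt2 and Penk lost their calls.

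Rgs5, a regulator of G protein signalling that marks pericytes, was the called member of 14 smooth muscle and pericyte markers (median 0.17), at 48.1, 115 and 308 CPM in day 10 kidneys and 33.2, 40.9 and 54.0 CPM in day 5 kidneys (1.71 ± 0.31, adjusted p = 0.0142). The median of contralateral kidneys, 54.6 CPM, lay above the highest day 5 library, and female day 10 replicate 2 lay within the day 5 range. The Rgs5 call was lost without any of the 3 female day 5 libraries, with adjusted p up to 0.0558. Myh11 (0.17 ± 0.31, adjusted p = 0.917), Tagln (-0.10 ± 0.21, adjusted p = 0.927) and Des (0.12 ± 0.21, adjusted p = 0.906) of smooth muscle did not pass. No blood endothelial marker of 15 was called (median 0.24). Angpt2, an endothelial ligand that loosens vessels, was named after its values were seen: it was 8.15, 13.5 and 15.5 CPM in day 10 kidneys and 3.17, 4.99 and 6.12 CPM in day 5 kidneys (1.35 ± 0.25, adjusted p = 0.0115), without overlap, and it lies within Mcph1 on the other strand.

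Kif1a, the kinesin motor that carries synaptic vesicle precursors along axons, was 9.49, 11.3 and 21.7 CPM in day 10 kidneys and 3.28, 4.15 and 7.87 CPM in day 5 kidneys (1.48 ± 0.20, adjusted p = 0.000564), with no overlap. Other genes best known from neurons rose at lower levels, named after their values were seen. Map6, which stabilises microtubules, was 1.5, 2.97 and 4.58 CPM in day 10 kidneys and 0.357, 0.625 and 1.49 CPM in day 5 kidneys (2.00 ± 0.35, adjusted p = 0.00989). Elavl4, a neuronal RNA-binding protein, was between 2.93 and 5.34 CPM in 5 day 10 libraries and listed at 0 in male replicate 1 and female replicate 1, against at most 0.268 CPM in day 5 kidneys (6.45 ± 1.29, adjusted p = 0.0304). The same 2 day 10 libraries were at or below 0.108 CPM for 9830107B12Rik, which had 370 counts over the day 10 libraries and 3 over the day 5 libraries, a ratio of 139 at equal depth with an interval of 47.0 to 675 that covers counting error only. Female day 10 replicate 3 was also low, at 0.176 CPM, the other 4 day 10 libraries had 1.29 to 8.46 CPM, and leaving out 1 library put the fitted log2 change between 4.33 and 7.65. Elavl4 kept its call in 4 of 14 fits with a library left out and 9830107B12Rik in 3. Cck (1.83 ± 0.36, adjusted p = 0.0175) and Npy1r, a receptor of neuropeptide Y (1.88 ± 0.36, adjusted p = 0.0142), also rose, each with overlapping groups and kept in 11 of 14 such fits. Npy1r was 24.3 CPM in female day 10 replicate 3 and at most 4.91 CPM in the other 6 day 10 libraries, and without that library its change was 1.19 (adjusted p = 0.0962). None of 9 tested axon, glia and adipocyte genes was called.

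Of the 7 genes that fell, Gsta2, a glutathione S-transferase of the tubule, was 31, 43.8 and 143 CPM in day 10 kidneys, against 105, 186 and 244 CPM in day 5 kidneys and a median of 180 CPM in contralateral kidneys (-1.41 ± 0.31, adjusted p = 0.0407). One female day 10 library lay within the day 5 range of the males. Cyp4a12b, a fatty acid hydroxylase gene with a near-identical copy in Cyp4a12a, was 2.82, 7.67 and 8.39 CPM in day 10 kidneys and 12.4, 14.1 and 25 CPM in day 5 kidneys (-1.29 ± 0.20, adjusted p = 0.00288), without overlap; Cyp4a12a itself did not pass (-0.99 ± 0.29, adjusted p = 0.151). Hmga1, a chromatin protein of growing cells, was 2.85, 7.29 and 9.46 CPM in day 10 kidneys and 10.3, 12 and 26.3 CPM in day 5 kidneys (-1.29 ± 0.26, adjusted p = 0.0238), also without overlap.

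Xirp2, an actin-binding protein of striated muscle, was 0.769, 1.07 and 2.43 CPM in day 10 kidneys and 1.4, 6.44 and 13.3 CPM in day 5 kidneys (-1.69 ± 0.31, adjusted p = 0.0121). At day 5 the males had 6.44 to 13.3 CPM and the females 1.4 to 2.30 CPM. Prrg4, a membrane protein with a Gla domain, was 11, 17.4 and 25.4 CPM in day 10 kidneys and 23.3, 35.4 and 48.8 CPM in day 5 kidneys (-1.05 ± 0.24, adjusted p = 0.047). The remaining falls, named after their values were seen, were Ttc16 (-1.65 ± 0.38, adjusted p = 0.047), which overlaps Tor2a on the other strand, and the pseudogene Gm7180 within Pde8a (-1.52 ± 0.32, adjusted p = 0.0297). With 1 library left out the call was kept in 14 of 14 fits for Cyp4a12b, 13 for Xirp2, 9 for Hmga1, 7 for Gm7180 and 2 for Gsta2, Prrg4 and Ttc16.

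**Figure D3:**
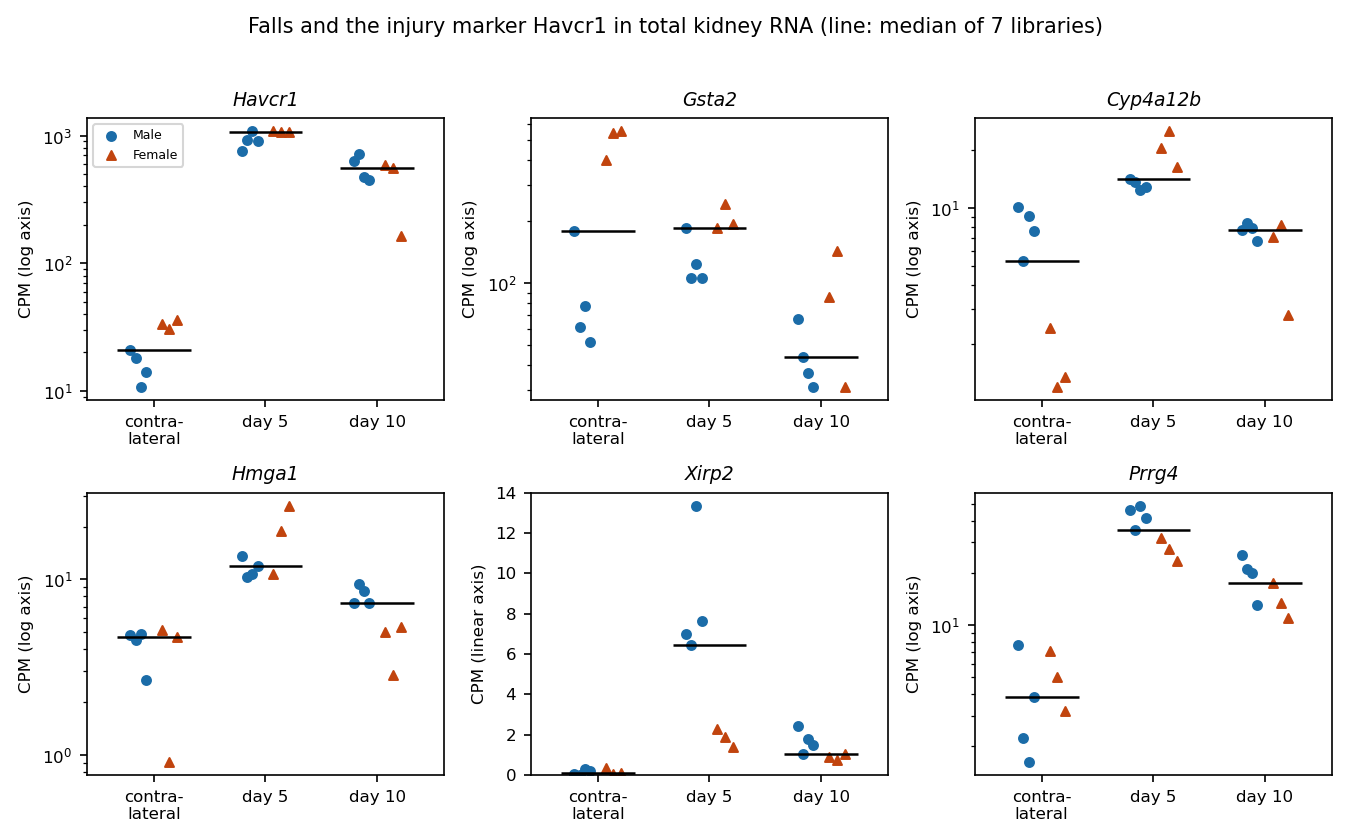
CPM of Havcr1 and of 5 genes that fell, in contralateral, day 5 and day 10 Total libraries (log axes, linear for Xirp2); circles are males, triangles females and the line is the median of 7 libraries. All Havcr1 points of day 10, at 163 to 717 CPM, lie below those of day 5, at 754 to 1087 CPM, and above all contralateral points, at up to 35.9 CPM.

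None of 16 marker genes of obstruction met the call. Havcr1 came nearest: it was 163, 553 and 717 CPM in day 10 kidneys and 754, 1061 and 1087 CPM in day 5 kidneys, with no overlap and an adjusted p of 0.0297, but its change of -0.99 ± 0.21 was just under 2-fold. Havcr1 was called in 10 of 19 other settings, by the limits of each, and in 4 of 14 fits with a library left out. Its changes ran from -0.80 to -1.19. The 10 include the settings with no fold minimum and with a 1.5-fold minimum, which its main change passes without a new fit. The adhesion molecule Vcam1 (145, 191 and 271 CPM at day 10, 232, 293 and 350 CPM at day 5; -0.51 ± 0.21, adjusted p = 0.315), Spp1, osteopontin (-0.82 ± 0.24, adjusted p = 0.138), and the injury keratin Krt20 (-0.73 ± 0.42, adjusted p = 0.552) were lower at day 10 in the average and did not pass. Lcn2, the siderophore-binding lipocalin NGAL, was higher in the average and did not pass either (184, 246 and 521 CPM at day 10, 99.0, 175 and 405 CPM at day 5; 0.64 ± 0.23, adjusted p = 0.251). Cdkn1a, p21, was at medians of 134 and 129 CPM in day 10 and day 5 kidneys (-0.11 ± 0.25, adjusted p = 0.931).

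Among 35 tubule injury and repair genes 2 rose, beside 0.352% of all genes, none fell and the median change was 0.05. Anxa8, an annexin, was 0.262, 2.51 and 7.22 CPM in day 10 kidneys and 0.114, 0.698 and 1.25 CPM in day 5 kidneys (2.22 ± 0.48, adjusted p = 0.03), and male day 10 replicate 4 lay below all but 1 of the day 5 libraries. Foxj1, the regulator of motile cilia, was 4.31, 5.56 and 8.28 CPM in day 10 kidneys and 1.49, 2.47 and 3.09 CPM in day 5 kidneys (1.28 ± 0.27, adjusted p = 0.0297), without overlap. Their calls were kept in 7 and 6 of 14 fits with a library left out.

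Lists of tubule function held no member called in the average of the sexes. Of 28 proximal tubule solute carriers 4 were higher at day 10 and the median change was -0.36, the lowest of all lists; it was -0.62 in females and 0.20 in males, a difference between the sexes that was not tested for the list. Slc34a1, the phosphate carrier, was 106 to 156 CPM in female day 10 kidneys and 194 to 379 CPM in female day 5 kidneys, and 205 to 515 CPM in male day 10 kidneys and 231 to 391 CPM in male day 5 kidneys (average -0.41 ± 0.19, adjusted p = 0.42). The change in females minus that in males was -1.63 ± 0.38 for Slc34a1 and -1.93 ± 0.47 for the anion carrier Slc22a6, each at an adjusted p of 0.32. Gluconeogenesis and proximal tubule metabolism gave a median of -0.26 over 22 genes, fatty acid oxidation -0.21 over 33, and endocytosis and brush border -0.18 over 19, with Lrp2, megalin, at -0.06 ± 0.17 (adjusted p = 0.948) and Pck1 at -0.76 ± 0.27 (adjusted p = 0.248). Medians of Lrp2 were 92.2 CPM at day 10, 99.7 CPM at day 5 and 590 CPM in contralateral kidneys.

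Of 14 collecting duct markers 1 was higher at day 10, none was called and the median was -0.33. Scnn1g, the gamma chain of the epithelial sodium channel, named after its values were seen, was 11.4, 13.7 and 18.1 CPM in day 10 kidneys and 17.8, 24.9 and 29 CPM in day 5 kidneys, with an adjusted p of 0.0026 at under 2-fold (-0.84 ± 0.13). Aqp2 (-0.49 ± 0.43, adjusted p = 0.748) and Aqp3 (-0.55 ± 0.18, adjusted p = 0.199), the water channels of this segment, did not pass. The 16 loop and distal tubule markers had a median of -0.02 and the 12 podocyte markers one of 0.16, with none called. Other tubule genes with an adjusted p under 0.05 and under 2-fold, likewise named after their values were seen, were the brush border phosphatase Alpl (-0.91 ± 0.17, adjusted p = 0.0122), the folate enzyme Shmt1 (-0.70 ± 0.15, adjusted p = 0.0292) and the bile acid receptor Nr1h4 (-0.62 ± 0.12, adjusted p = 0.0238). The Nr1h4 change was -1.12 ± 0.19 in females (adjusted p = 0.0184) and -0.12 ± 0.16 in males (adjusted p = 0.906), and the difference between the sexes did not pass (-1.0 ± 0.25, adjusted p = 0.32).

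**Figure D4:**
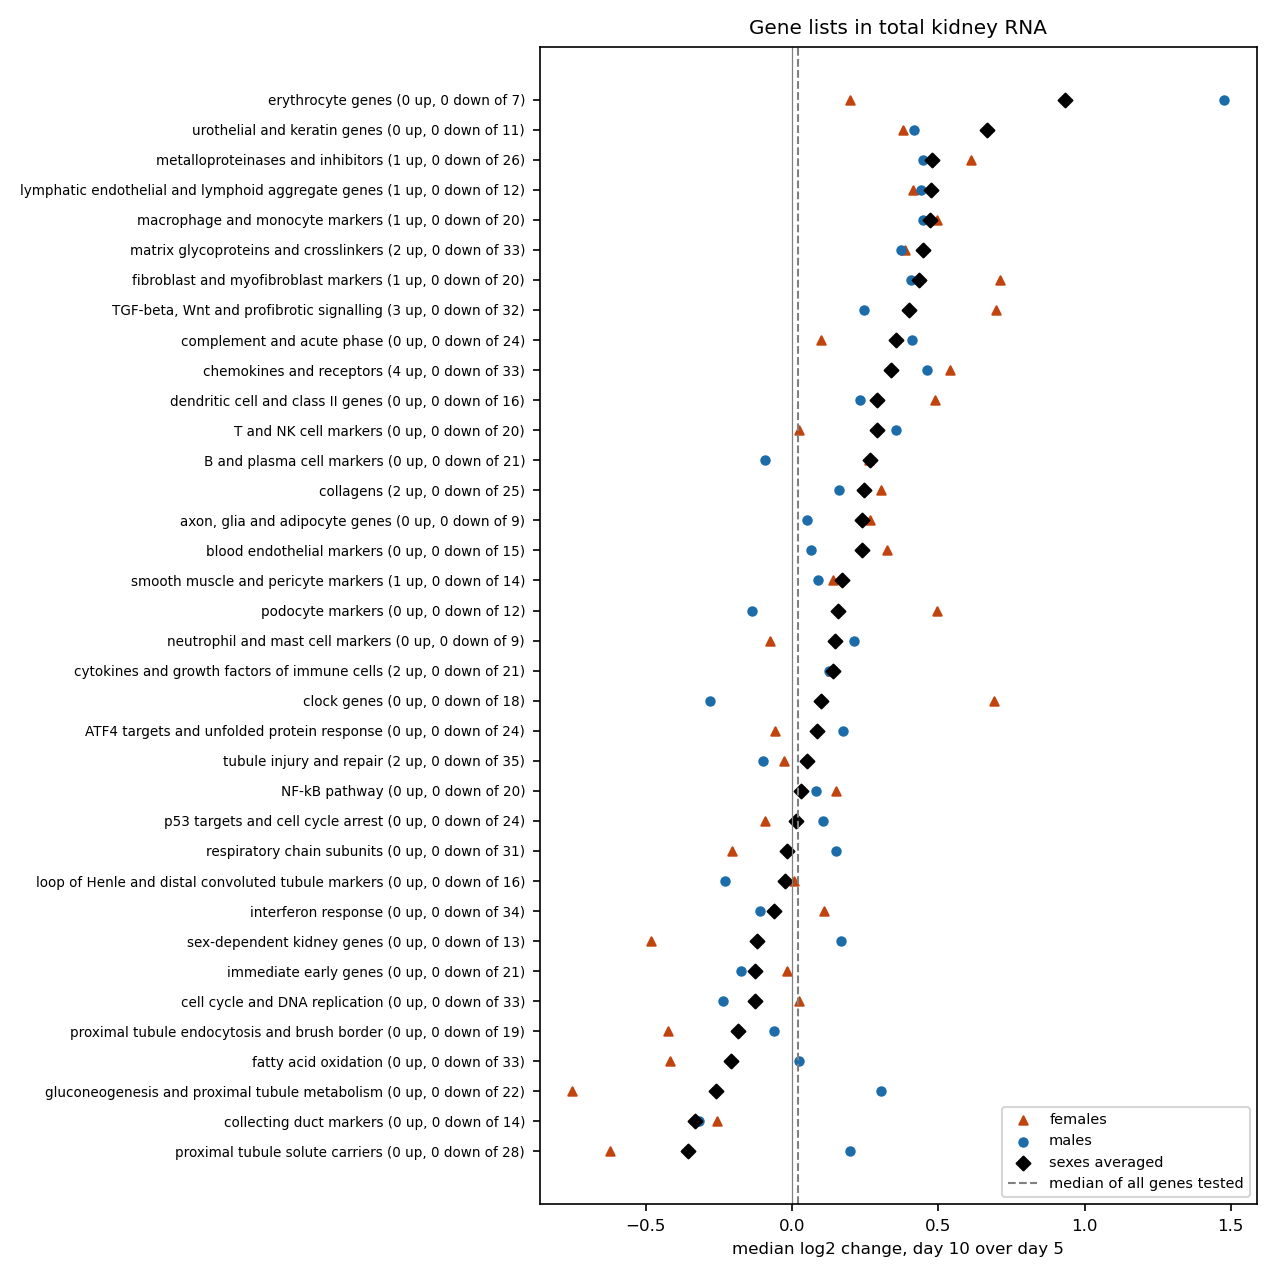
Median log2 change, day 10 over day 5, of the tested members of each of 36 gene lists, for females (triangles), males (circles) and their average (diamonds); the labels give the members that rose and fell of those tested, and the dashed line is the median of all genes, 0.02. Matrix and macrophage lists lie to the right of it in both sexes, and proximal tubule solute carriers lie at -0.62 in females and 0.20 in males.

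Programmes of stress, growth and immunity other than those above held no called gene. Cell cycle genes had a median of -0.13 over 33, with Mki67 at 11, 17 and 30.2 CPM in day 10 kidneys and 12, 16.2 and 31.3 CPM in day 5 kidneys (-0.08 ± 0.29, adjusted p = 0.962). Interferon response genes had one of -0.06 over 34, NF-kB pathway genes 0.03 over 20, p53 targets 0.01 over 24, ATF4 targets and unfolded protein response 0.08 over 24, immediate early genes -0.13 over 21 and respiratory chain subunits -0.02 over 31. Complement and acute phase genes had a median of 0.35 over 24, while C3, the central complement component, was lower at 202, 304 and 412 CPM in day 10 kidneys, against 376, 468 and 609 CPM in day 5 kidneys, and did not pass (-0.65 ± 0.20, adjusted p = 0.15). Neutrophil and mast cell markers (9 tested), erythrocyte genes (7) and urothelial and keratin genes (11) had medians of 0.15, 0.93 and 0.67, no member called, and summed levels that overlapped between the days; for the erythrocyte genes these were 53.7 to 171 CPM in day 10 kidneys and 31.4 to 123 CPM in day 5 kidneys. The 13 sex-dependent kidney genes had a median of -0.12 with none called.

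Within the sexes fewer genes passed. In males 6 genes were called (0.0358%): Lyz1, Kif1a, Nkd2, Dcstamp and Ch25h, a cholesterol hydroxylase named after its values were seen, rose and Xirp2 fell. In females 23 were called (0.137%), 13 higher and 10 lower. The rises included Lyz1, Retnla, Npr3, Mmp12, Col12a1 and Thbs2. The falls included Hmga1, Cyp4a12b, Scnn1g and Nr1h4. They also included Slc22a2 (-1.17 ± 0.23, adjusted p = 0.0336) and Ddc (-1.17 ± 0.21, adjusted p = 0.0208), both named after their values were seen. Single libraries moved these counts: the males had 1 call without male day 5 replicate 3 and 14 without male day 10 replicate 1, and the females had 1 without female day 5 replicate 2 and 91 without female day 10 replicate 2. The test of the difference between the sexes called 1 gene of 16782 (0.00596%), the clock repressor Nr1d2. It was 46.0, 55.7 and 59.97 CPM in female day 10 kidneys and 18.4, 20.4 and 21.7 CPM in female day 5 kidneys, and it was 30.6 to 42.5 CPM in male day 10 kidneys and 49.2 to 66.2 CPM in male day 5 kidneys. Its change was 1.41 ± 0.24 in females and -0.63 ± 0.20 in males, a difference of 2.05 ± 0.31 (adjusted p = 0.0193). The groups did not overlap in either sex. No gene was called for this difference without male day 5 replicate 1 or 3, male day 10 replicate 4, any 1 female day 5 library or female day 10 replicate 3, and 21 were called without male day 10 replicate 1. The 18 clock genes had a median change of 0.69 in females and -0.28 in males, with Dbp at a difference of 2.73 ± 0.81 and Arntl at -1.98 ± 0.70, neither of which passed (adjusted p = 0.336 and 0.42).

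The same days were compared in the PT fraction, where 66 of 14932 genes were called (0.442%). Of the 66 genes called in Total, 42 were tested in PT and 12 were called there in the same direction: Retnla, Anxa8, Penk, Npr3, Mmp12, H2-M2, Rgs5, Ms4a7, Fcrls, Nkd2 and Ltbp2 rose and Gsta2 fell in each fraction. Retnla changed by 3.61 ± 0.58 in PT (adjusted p = 0.00623), at 0.440 to 3.53 CPM in PT day 10 libraries and up to 0.274 CPM in PT day 5 libraries. Anxa8 changed by 4.52 ± 0.70 in PT (adjusted p = 0.00544) and by 2.22 ± 0.48 in Total, and the difference, -2.35 ± 0.86, did not pass (adjusted p = 0.602). None of the 66 was called for a difference between the fractions in its change, which does not show that the changes were equal. For Retnla that difference was 0.05, from changes of 3.74 ± 0.48 in Total and 3.61 ± 0.58 in PT. Its derived standard error, 4.78, is far above either of those. It comes from dividing a change near 0 at low counts, so it is not a reliable measure of precision.

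**Figure D5:**
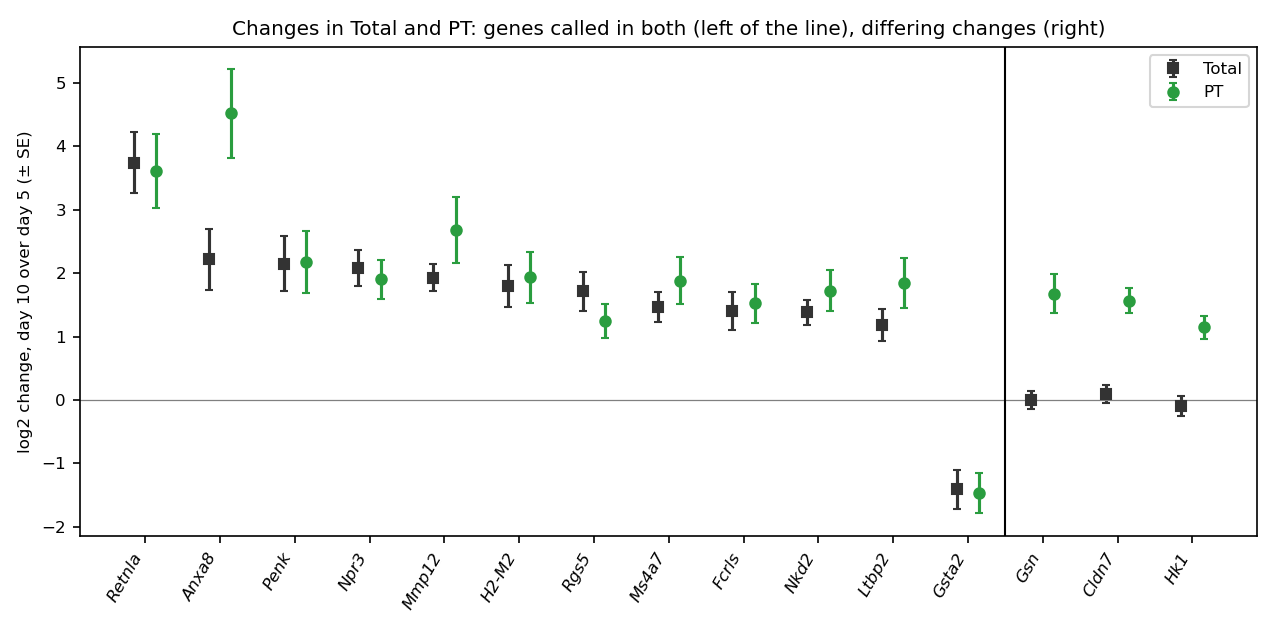
Log2 change, day 10 over day 5, ± approximate standard error, in Total (squares) and PT (circles). Left of the vertical line are the 12 genes called in the same direction in both fractions, and right of it 3 genes whose change differed, with Total changes of -0.09 to 0.09 and PT changes of 1.15 to 1.67.

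The change in Total differed from that in PT for 4 of 17110 genes (0.0234%), all with the lower change in Total. Cldn7, a tight junction claudin of the distal nephron, was 42.1, 65.1 and 115 CPM in Total day 10 and 41.1, 57.1 and 98.5 CPM in Total day 5 libraries (0.09 ± 0.14, adjusted p = 0.896), while in PT it was 14.6, 20.9 and 39.6 CPM at day 10 and 6.34, 7.26 and 8.76 CPM at day 5 (1.57 ± 0.20, adjusted p = 0.00175). The difference was -1.53 ± 0.24 (adjusted p = 0.00291). Gsn, the actin-severing protein gelsolin, changed by -0.01 ± 0.14 in Total and 1.67 ± 0.31 in PT (difference -1.74 ± 0.34, adjusted p = 0.0408). Hk1, a hexokinase, changed by -0.09 ± 0.16 in Total and 1.15 ± 0.18 in PT (difference -1.30 ± 0.24, adjusted p = 0.0257). In Total the day 10 and day 5 libraries of these 3 genes overlapped, and in PT those of Cldn7 and Hk1 did not. The count of 4 fell to 2 when any 1 of 10 of the 28 day 10 and day 5 libraries was left out, 8 of them Total and 2 PT, and was 14 without female day 10 PT replicate 1.

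Of the 59 genes that rose, 50 already had a day 5 median above the contralateral median, and 35 had every day 5 library above every contralateral library. Over all 16782 genes tested these shares were 51.3% and 15.4%. The counts use the same day 5 libraries as the contrast that called the genes, so they are given as a description. Median CPM in contralateral kidneys were 0.40 for Mmp12, 1.68 for Ms4a7, 5.93 for Col12a1, 0.985 for Nkd2 and 5.36 for Ccl6, each below every day 5 library. Rgs5 and Npr3 were the exceptions among the genes described here at 5 CPM or more, with contralateral medians of 54.6 and 9.05 CPM above their day 5 medians of 40.9 and 6.91 CPM. Among the falls, Hmga1 and Prrg4 at day 10, with medians of 7.29 and 17.4 CPM, stayed above their contralateral medians of 4.67 and 3.86 CPM, and Gsta2 at day 10 (43.8 CPM) lay below its contralateral median of 180 CPM, where all females were above all males.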

How the data were processed

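RNA was measured in 42 kidney cortex libraries, 21 Total and 21 PT. The authors deposited raw read counts per gene and RPKM, reads scaled by gene length and library total, with no counts made from pooled replicates. STAR 2.0.4b and featureCounts 1.4.5 are named in the submitters' processing notes; the genome build and the strand setting are not given in the sources used here. The deposited RPKM were used only in an alternative test, on log2(RPKM + 1) and log2(RPKM + 0.1).

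Counts of the 21 Total libraries were filtered with edgeR's filterByExpr, scaled by TMM and fitted in edgeR 4.0.16 (R 4.3.3, robust quasi-likelihood) with 1 mean for each sex and state. The tested contrast was day 10 minus day 5, averaged over the sexes, with Benjamini-Hochberg adjustment over all genes tested. The standard error was derived from the log2 change and its F statistic and is approximate. CPM use TMM-scaled library sizes. The difference between fractions was fitted on all 42 libraries and the PT change on the 21 PT libraries. The steps were tested on simulated data. limma 3.58.1 and DESeq2 1.42.0 served as alternatives. Counts per library limit the precision of low genes.

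Genes were named by rule: 16 obstruction markers, the 12 largest rises and falls called at a mean of 5 CPM or more in 1 sex on 1 day without overlap within either sex, the first 3 genes of each list with up to 3 called members each way, and the called differences between sexes or fractions. Some genes that the rule names are not reported here. Other names are marked as chosen after their values were seen. The comparison, the gene lists and the rule were chosen with earlier results of these data known. Of 40701 symbols, 39799 matched GENCODE M21 and 12632 had no count in any library.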

Additional observations from a re-analysis of the deposited data

Results flagged for a closer look

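Among the males, groups of 4 libraries were searched for 1 library far from the other 3. Of 172 groups over 86 genes, 14 stood out. The cutoff nominally flags about 1 group in 20 of independent, normally spread values. These groups share libraries, CPM can be skewed and most genes were called from these libraries, so that rate is only a rough guide. In day 10 males, replicate 3 was highest for Ccl2 (95.1 CPM, the others 54.4 to 58.1) and Dcx (3.79 CPM, the others 0.866 to 0.918) and lowest for C1qa (65.0 CPM, the others 134.5 to 148.5) and Foxj1 (4.39 CPM, the others 5.56 to 5.80). Replicate 4 of that group was highest for Lyz1 (15.7 CPM, the others 4.05 to 5.40), Ccl22 (15.4 CPM, the others 4.75 to 5.98), Tnf (3.06 CPM, the others 1.72 to 1.80) and Fgl2 (28.7 CPM, the others 22 to 22.8). Replicate 2 was highest for Il1b (7.46 CPM, the others 5.86 to 5.99) and replicate 1 for Gsn (101 CPM, the others 85.0 to 87.8).

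In day 5 males, replicate 1 was lowest for Foxj1 (1.49 CPM, the others 2.47 to 2.54). Replicate 3 was highest for Neurl1a (4.95 CPM, the others 2.36 to 2.57) and Ttc16 (1.61 CPM, the others 0.656 to 0.782). Replicate 4 alone held reads of Mucl1 (0.189 CPM, the others listed at 0).

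The change of Nr1d2 differed between the sexes by 2.05, females minus males on the log2 scale. The changes of Gsn, Cldn7 and Hk1 differed between the fractions by -1.74, -1.53 and -1.30, Total minus PT on the same scale.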

How the results depend on the processing

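Counts of calls moved with the method. All 66 called genes kept 1 sign in every setting tried, which their selection for a change of at least 2-fold made likely beforehand. Settings that moved only a threshold reuse the main fit, so they could not change a sign. Main counts were 59 higher and 7 lower, 6 in males, 23 in females, 1 between sexes and 4 between fractions. Library size alone as the scaling gave 38 higher and 0 between sexes. No filter gave 36 in females and 2 between sexes, and 5 CPM in 3 libraries gave 35 higher. The 14 libraries alone gave 16 lower, 12 in females and 2 between sexes, and all 42 libraries 39 higher and 0 between sexes. Additive sex and state gave 3 lower, and no sex term 38 higher and 2 lower. DESeq2 called 135 higher, 23 lower, 58 in males, 149 in females and 32 between sexes. limma-voom called 25 lower and 19 in males. limma-trend called 21 higher on log2(RPKM + 1), and 27 higher and 11 lower on log2(RPKM + 0.1). Of calls, 89.4% were higher in the main test, 73.4% with voom and 72.4% or 71.1% on RPKM. No fold minimum or 1.5-fold gave 20 lower each, and an adjusted p under 0.01 gave 14 higher and 1 lower. Chosen after seeing the data, leaving out the 3 libraries of lowest Lars2 gave 12 higher, 2 lower, 0 in males and 0 between sexes, and Lars2 as a covariate 11 in males, 50 in females and 4 between sexes. With 1 library left out at a time, counts ran from 14 to 78 higher, 2 to 17 lower, 1 to 14 in males, 1 to 91 in females, 0 to 21 between sexes and 2 to 14 between fractions. Replicate numbers showed no clear pairing over the 7 combinations of sex and number. The correlations of same-numbered libraries' deviations ran from -0.349 to 0.239. Of the 7, 2 were over 0.1 and 2 were best with their own number. The main test between fractions had no term pairing Total and PT libraries of the same sex, day and number. With the number as a block, 42 genes were higher, 9 lower, 7 called in males, 1 in females, 0 between sexes and 4 between fractions. That block joined libraries of the same sex and number over both days. It therefore did not pair Total and PT libraries of the same day, and no fit here did. The cause of each shift was not tested. Depth limits genes under about 1 CPM most.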
